A study of Homo sapiens with 32 samples.

Results

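The start sites described here are all those of chromosomes 1 and 15 in a table of capped 5′ RNA ends that covers a pair of human prostate cancer cell lines, LNCaP and BicR. They number 1707 of 13294 sites in the table, 1330 on chromosome 1 and 377 on chromosome 15. Of the chromosome 1 sites, 745 lay on the short arm and 585 on the long arm, with the arms divided at the widest stretch without a site, from 120838344 to 142618803. All chromosome 15 sites lay on its long arm. Membership needed only the chromosome, but the chromosomes themselves were chosen by a measured value, the ratio of BicR to LNCaP in the 6 control libraries, which was low on both. Every value from those 6 libraries is therefore a description, and tests were run only in the 12 treated libraries.

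The study used CAGE, which captures the 5′ end of capped RNA and counts the tags that start at each position, to find androgen-regulated start sites. Each line was sampled in 9 conditions with 1 library per condition: before treatment (0 h), and at 6 h and 24 h with ethanol (the vehicle), with DHT (dihydrotestosterone, the natural androgen) at 10 nM, with bicalutamide (an androgen receptor antagonist) at 1 uM, or with DHT and bicalutamide together. All cells had spent 3 days in phenol red-free RPMI with 2.5% charcoal/dextran treated serum, which is poor in steroids. Both lines are labelled prostate cancer. LNCaP is an established androgen-responsive line, and the labels do not spell out what the name BicR stands for, so how that line was derived is left unsaid here. The 0 h and ethanol libraries, 3 per line, are called control libraries below, and the 6 others per line are called treated. The series' LNCaP libraries treated with R1881, a synthetic androgen, have no BicR counterpart and were not used here.

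The number of transcripts that start on a chromosome depends on how many copies of it a cell carries and on how active each promoter is. Cancer lines often carry whole chromosomes or arms in unequal numbers. A gain or loss can then shift the genes of a long stretch together and by a similar small ratio. Promoter activity often shifts genes singly or in small neighbouring groups. The length of a shifted stretch does not by itself tell these apart. Chromosome 1 is the largest human chromosome, with a large block of repetitive DNA beside its centromere. Chromosome 15 has its centromere near one end, and its short arm carries ribosomal RNA gene arrays and few other genes.

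Depth lay between 4139807 and 7753336 tags per library over the sites of the table, and 3 tags corresponded to 0.326 to 0.601 RPM (tags scaled to a common library size by the authors). In these bulk RNA samples fewer chromosome copies, fewer cells of a kind and less RNA per copy cannot be told apart, and DNA was not measured. The table pairs no site with a gene name and no gene table of its build (hg19) was used, so sites are given by hg19 position and strand, and the prostate identity of the lines could not be checked against marker genes. The library of BicR treated with DHT and bicalutamide for 6 h stood apart from the other 5 treated BicR libraries. The main counts and the sites that it moves are given with and without that condition, which is then left out in both lines. The table also holds 232 sites, 26 of them on chromosomes 1 and 15, that stayed under 2 RPM in 15 of the 18 libraries, all but this one and LNCaP with bicalutamide, alone or with DHT, at 6 h. Over those 26 sites the median was 15.1 RPM in the BicR library. It was 1.33 RPM in LNCaP with bicalutamide alone and 0.47 RPM in LNCaP with DHT and bicalutamide.

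In the control libraries chromosome 15 was the chromosome with the lowest ratio of BicR to LNCaP. For each site the mean RPM of the 3 BicR control libraries was divided by that of the 3 LNCaP control libraries, with 0.5 RPM added to each mean, and expressed as a log2 ratio. The median over chromosome 15 was -0.34 (quartiles -0.57 and -0.13), a ratio of 0.790, and 309 of 377 sites (82.0%) were lower in BicR. Chromosome 1 had a median of -0.14 (quartiles -0.37 and 0.08), a ratio of 0.906, with 872 of 1330 sites (65.6%) lower. Over the 11587 sites of all other chromosomes the median was -0.004 and 50.5% of sites were lower. Of 23 chromosomes compared, these were the lowest and second lowest. Chromosomes 2 and 9 lay at the other end, with medians of 0.24 and 0.22.

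The arms of chromosome 1 had different medians. The long arm stood at -0.18 (ratio 0.881), with 409 of 585 sites (69.9%) lower in BicR. The short arm stood at -0.11 (ratio 0.929), with 463 of 745 sites (62.1%) lower. All 3 BicR control libraries lay below all 3 LNCaP control libraries at 184 of 377 sites of chromosome 15 (48.8%) and at 382 of 1330 sites of chromosome 1 (28.7%), where 19.0% of all sites did so. The opposite order, all BicR above all LNCaP, held at 17 and 103 sites, where 14.9% of all sites did so. These shares come from the libraries that led to the choice of the chromosomes.

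The size of the shift at chromosome 15 was similar across abundance and strand. Sites with a mean under 10 RPM had a median of -0.44 (80 sites), those of 10 to 30 RPM -0.34 (170 sites), those of 30 to 100 RPM -0.28 (91 sites) and those over 100 RPM -0.32 (36 sites). Plus-strand and minus-strand sites had medians of -0.35 and -0.32. On the long arm of chromosome 1 the 114 sites under 10 RPM had a median of only -0.02, whereas the 3 classes above that level lay between -0.22 and -0.17.

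**Figure D1:**
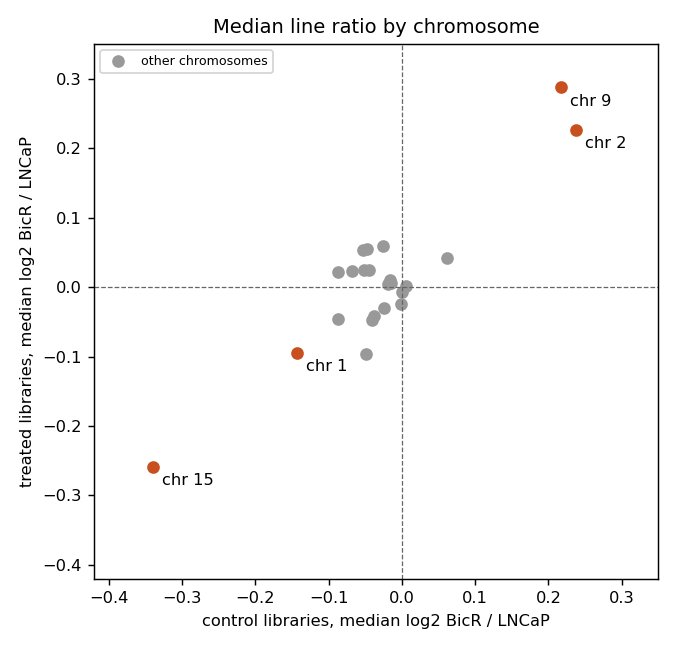
Median log2 ratio of BicR to LNCaP over the sites of each of 23 chromosomes, in the control libraries (x axis) and in the treated libraries (y axis), 1 point per chromosome. Chromosome 15 lies farthest to the lower left (-0.34 and -0.26), chromosome 1 is the second lowest on the x axis, and chromosomes 2 and 9 stand at the upper right.

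The treated libraries, which played no part in choosing the chromosomes, gave medians of the same sign. Chromosome 15 was again the lowest of the 23, while chromosome 1 (-0.095) ranked after chromosome 4 (-0.096), whose control median was -0.05. The ratio of the mean RPM of the 6 treated BicR libraries to that of the 6 treated LNCaP libraries had a median log2 of -0.26 over chromosome 15, -0.13 over the long arm and -0.06 over the short arm of chromosome 1, and 0.01 over all sites. Across sites the control and treated log2 ratios correlated with Pearson r = 0.73 over the 377 sites of chromosome 15 and r = 0.74 over the 1330 of chromosome 1. The points share the same lines and sites, so this is a description across sites, which are not replicates.

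Each of the 9 conditions gives its own ratio of 1 BicR to 1 LNCaP library. Relative to the median over all sites in the same pair, chromosome 15 stood at -0.28 before treatment, -0.32 with ethanol at 6 h and -0.33 with ethanol at 24 h. With treatment it stood at -0.33 (DHT 6 h), -0.30 (bicalutamide 6 h), -0.20 (DHT and bicalutamide 6 h), -0.27 (DHT 24 h), -0.30 (DHT and bicalutamide 24 h) and -0.26 (bicalutamide 24 h). All 9 values were below 0, and the smallest in size came from the pair that holds the BicR library standing apart. The long arm of chromosome 1 ranged from -0.17 to -0.11 with a mean of -0.15 ± 0.02 (SD, n = 9 conditions), and the short arm from -0.10 to -0.05 with a mean of -0.08 ± 0.02 (SD, n = 9 conditions). The ranges of the arms did not overlap, by a narrow margin. Chromosome 15 had a mean of -0.29 ± 0.04 (SD, n = 9 conditions) and overlapped neither arm.

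The same shift can be read in each library. The level of a chromosome in a library was taken as the median, over its sites, of the site's log2 value less its mean over the 18 libraries and less the library's median over all sites. Chromosome 15 in LNCaP stood at 0.05 before treatment, 0.14 with ethanol at 6 h and 0.17 with ethanol at 24 h, and in the 6 treated LNCaP libraries at a lowest of 0.14, a median of 0.17 and a highest of 0.19. In BicR it stood at -0.21, -0.19 and -0.17 in the same 3 control conditions, and in the 6 treated libraries at a lowest of -0.18, a median of -0.14 and a highest of -0.03. All 9 BicR libraries lay below all 9 LNCaP libraries, and the library nearest to the other line was BicR with DHT and bicalutamide at 6 h.

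On the long arm of chromosome 1 the 9 LNCaP libraries lay between 0.06 and 0.10 and the 9 BicR libraries between -0.11 and 0.0044. The highest BicR value, 0.0044, again came from DHT and bicalutamide at 6 h, and the other treated BicR libraries lay between -0.09 and -0.07. On the short arm LNCaP lay between 0.025 and 0.05 and BicR between -0.06 and -0.01. Neither arm showed an overlap between the lines, although the distance between them on the short arm was small. Chromosome 2, which moved the other way, stood at -0.04 in the BicR library of DHT and bicalutamide at 6 h and at 0.10 to 0.19 in the other treated BicR libraries.

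**Figure D2:**
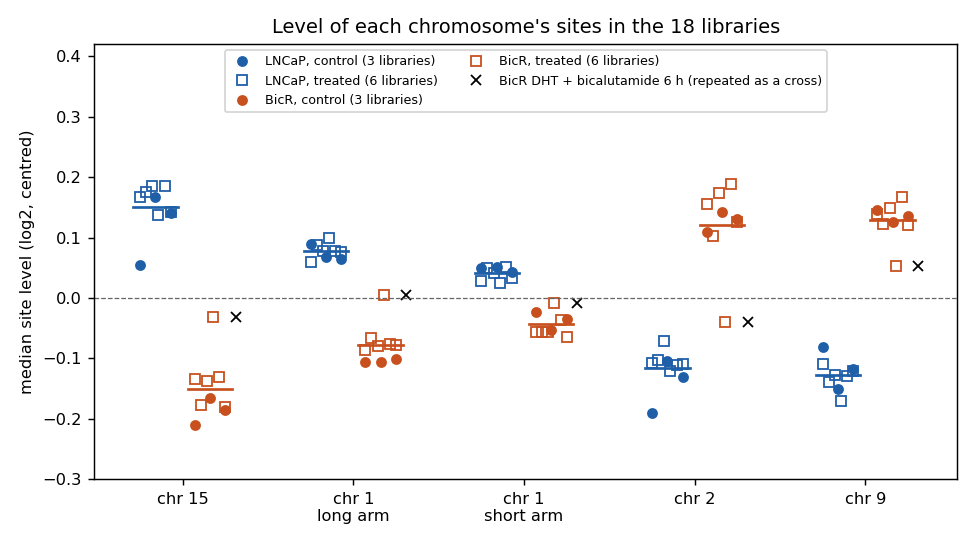
Median centred log2 level of the sites of chromosome 15, both arms of chromosome 1, and chromosomes 2 and 9 in each of 18 libraries, with LNCaP in blue, BicR in orange, filled circles for control libraries, open squares for treated libraries and a bar at the mean of each line's 9 libraries. BicR lies below LNCaP in every library for chromosome 15 and both arms of chromosome 1, and the library marked with a cross (BicR, DHT and bicalutamide, 6 h) lies nearest to LNCaP.

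Along chromosome 15 the lower ratio ran from the first site to the last. All 9 windows of 10 Mb that held at least 10 sites had control medians below -0.2, where 10 of 256 such windows on the other chromosomes did (3.91%). The smallest shift was -0.24 in the window from 30 to 40 Mb (25 sites, 19 of them lower in BicR) and the largest was -0.44 in the window from 70 to 80 Mb (63 sites, 60 of them lower). The first window with sites, from 20 to 30 Mb, also stood at -0.44, with 12 of 14 sites lower, and the last, from 100 Mb on, at -0.31, with 10 of 11 lower. In between, the windows from 40, 50 and 60 Mb had medians of -0.32, -0.30 and -0.31, and those from 80 and 90 Mb of -0.38 and -0.37. No window of this chromosome reached the median of all sites.

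A search for breaks found none inside chromosome 15. Sites on 1 strand within 500 bp were first merged, giving 367 units, and a piecewise-constant fit with a penalty on each added step was run on their log2 ratios. It returned 1 segment from 21905831 to 102264675, a span of 80.4 Mb, so it placed no edge of the lower stretch inside it. The search also returned 1 segment for every other chromosome, so small or short steps could have gone uncalled. Nothing upstream of 21905831 was measured, and the position of a break there or beyond 102264675 could not be seen. The best single split lay between 69745156 and 69854033, with medians of -0.31 before and -0.39 after it, and gained 0.690 in fit against a penalty of 5.68. The treated libraries also gave 1 segment, with their best split at another place, between 86338143 and 86679359 (-0.28 before and -0.18 after).

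Within that single segment the local ratio still varied. In a running median over 31 units, all 337 steps along chromosome 15 were below 0 in the control libraries and in the treated ones. The value nearest to 0 in the control libraries was -0.02, over the units from 44116887 to 50647088, where the same units had a treated median of -0.20. The lowest was -0.48, over the units from 66994573 to 73344762, with a treated median of -0.38 over the same units. The stretch that came near 0 in the control libraries thus stood below the all-site median of 0.01 in the treated ones.

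Chromosome 1 was lower along most of its length and by less. Of its 23 windows, 19 had a control median below 0, where 140 of 256 windows on the other chromosomes did, and 4 lay below -0.2. The lowest was -0.36 from 180 to 190 Mb (28 sites, 22 lower in BicR), followed by -0.30 from 230 to 240 Mb (38 sites, 30 lower), -0.26 from 200 to 210 Mb (86 sites, 59 lower) and -0.22 from 150 to 160 Mb (153 sites, 118 lower). All 4 lay on the long arm. The 4 windows above 0 were those from 60 to 70 Mb (0.10, 28 sites), 80 to 90 Mb (0.07, 43 sites) and 100 to 110 Mb (0.03, 39 sites) on the short arm and from 190 to 200 Mb (0.08, 13 sites) on the long arm.

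The break search returned 1 segment for chromosome 1 as well, from 714011 to 249200482, a span of 248 Mb with a median of -0.15 over 1276 units. The best single split fell between 120254558 and 120311527, close to the gap between the arms, with medians of -0.11 before and -0.19 after. Its gain of 2.86 did not reach the penalty of 7.16. In the treated libraries the best split fell between 54355474 and 54359859 (-0.03 before and -0.13 after), and its gain of 4.53 did not reach the penalty of 7.81. No step at the centromere was therefore called, and the search returned 1 segment for every other chromosome too, including chromosomes 2 and 9.

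**Figure D3:**
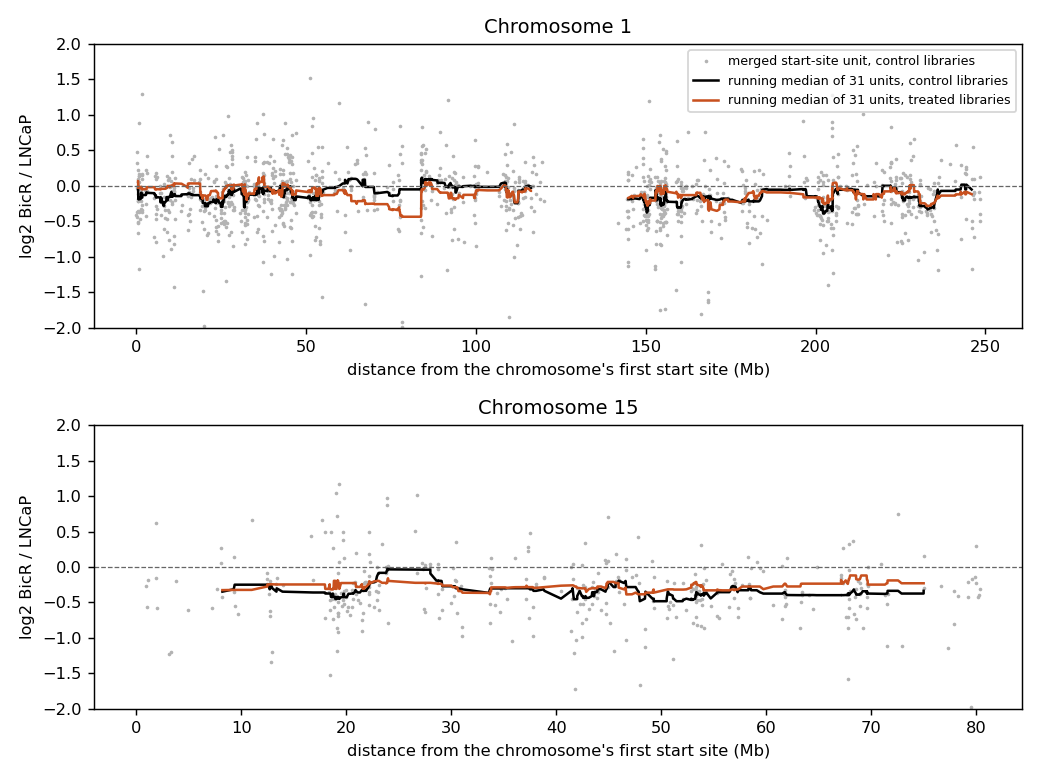
Log2 ratio of BicR to LNCaP along chromosomes 1 and 15 against the distance from each chromosome's first start site in Mb. Grey points are merged start-site units in the control libraries (17 units of chromosome 1 and 2 of chromosome 15 lie outside the axis), and lines are running medians of 31 units in the control (black) and treated (orange) libraries. On chromosome 15 both lines stay below 0 throughout, while on chromosome 1 they cross 0, and they part company over the later part of the short arm.

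The short arm of chromosome 1 was not ordered alike in control and treated libraries. Over the 509 sites of its first 6 windows (714011 to 59762765) the median was -0.14 in the control libraries and -0.03 in the treated ones. Over the 236 sites that followed (60280640 to 120838344) it was -0.02 in the control libraries and -0.14 in the treated ones. The window from 60 to 70 Mb went from 0.10 to -0.13, and the window from 70 to 80 Mb from -0.15 to -0.34. The first 6 windows held 58 to 109 sites each, and the later ones 28 to 56 where they held at least 10. Over all 288 windows of the genome, the treated minus the control median correlated with the number of sites in the window (Pearson r = 0.41, Spearman rho = 0.43), given as a description since windows share their libraries. Whether site density or base composition has a part in the change along the short arm was not tested.

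In the treated libraries the windows could be tested. The median log2 level of each window in each library, less the library's median over all sites, was compared between lines with limma, with the 6 matched conditions as blocks. All 9 windows of chromosome 15 were lower in BicR at an adjusted p under 0.05, and 14 of 23 windows of chromosome 1 were, where 25.7% of all 288 windows were called lower. No window of either chromosome was called higher, where 15.3% of all windows were. On chromosome 15 the 6 BicR libraries lay below the 6 LNCaP libraries without overlap in 8 of 9 windows, and on chromosome 1 in 11 of 23, where 13.5% of all windows did so. With the libraries not centred, 7 of 9 and 6 of 23 had no overlap (6.94% of all windows), and 9 and 10 windows were called lower (17.4% of all windows). Without DHT and bicalutamide at 6 h in both lines, all 9 windows of chromosome 15 had no overlap.

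On chromosome 15 the window from 20 to 30 Mb had the largest difference, with a mean level of 0.19 in LNCaP and -0.23 in BicR (log2 difference -0.42, SE 0.035, limma adjusted p = 9.0e-05). The window from 80 to 90 Mb had the smallest, with 0.09 in LNCaP and -0.07 in BicR (-0.16, SE 0.027, limma adjusted p = 0.0019). The other 7 lay between -0.35 and -0.25. On chromosome 1 the window from 70 to 80 Mb had the largest difference, 0.17 in LNCaP against -0.18 in BicR (-0.35, SE 0.059, limma adjusted p = 0.0019). Next came the window from 230 to 240 Mb, with 0.13 against -0.16 (-0.29, SE 0.036, limma adjusted p = 0.00044). Of the 9 windows of chromosome 1 that did not pass, the first and second (0 to 20 Mb) had differences of -0.04 (SE 0.028) and 0.02 (SE 0.030), and the last (from 240 Mb) -0.06 (SE 0.047).

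**Figure D4:**
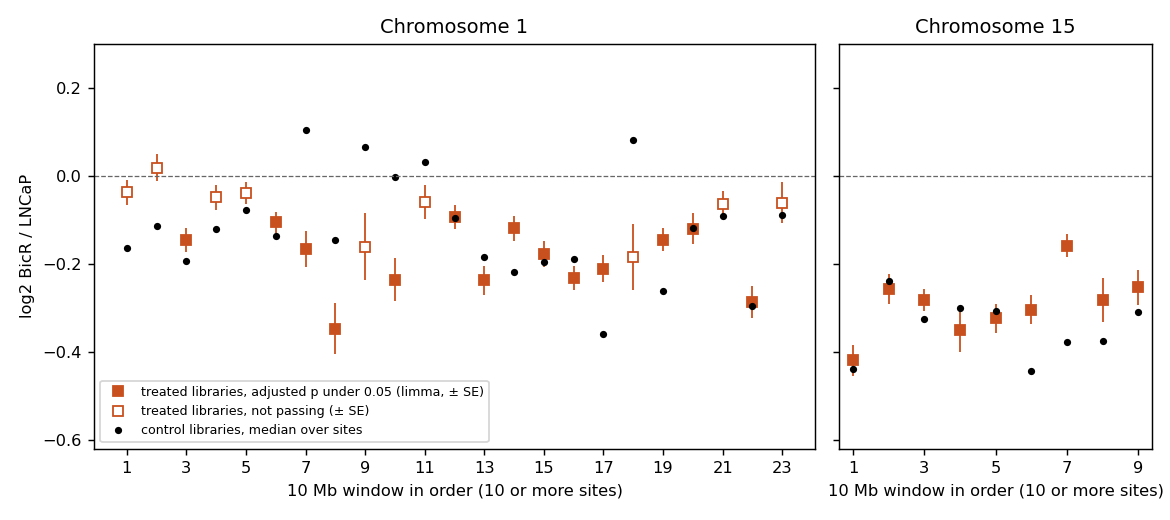
Log2 difference between BicR and LNCaP in each 10 Mb window with at least 10 sites, in order along chromosomes 1 and 15. Squares show the 12 treated libraries (mean ± SE from limma, filled where the adjusted p was under 0.05) and black dots the median over sites in the control libraries. All 9 squares of chromosome 15 are filled and lie between -0.42 and -0.16, and 14 of 23 of chromosome 1 are filled.

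Single sites were tested in the same 12 libraries with edgeR's quasi-likelihood F test, with the condition as a block. After the filter on low counts, 375 sites of chromosome 15 and 1320 of chromosome 1 were tested, which leaves 2 and 10 untested. On chromosome 15, 178 sites (47.5%) were lower in BicR at an adjusted p under 0.05, where 17.2% of all 13213 tested sites were. On chromosome 1, 356 sites (27.0%) were lower, in 184 cases on the short arm (24.9% of 740) and in 172 on the long arm (29.7% of 580). Sites called higher in BicR numbered 18 on chromosome 15 (4.80%) and 153 on chromosome 1 (11.6%), where 19.0% of all tested sites were. Without DHT and bicalutamide at 6 h the sites called lower were 189 on chromosome 15 (50.5%) and 391 on chromosome 1 (29.9%), where 19.5% of all were. The 18 sites called higher on chromosome 15 fell to 10 without BicR bicalutamide at 6 h and to 11 without the LNCaP library of that condition. With 1 library per line and condition, these p-values measure how far the line difference varied over the 6 conditions.

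To find sites that depart from the shift of their chromosome, the same fit was run with the chromosome's own median treated log2 ratio (-0.27 for chromosome 15 and -0.10 for chromosome 1 over the tested sites) as the value of no departure. On chromosome 15, 259 of 375 sites (69.1%) did not depart, 55 lay above the median and 61 below it. On chromosome 1, 837 of 1320 (63.4%) did not depart, 228 lay above and 255 below. Over all tested sites, set against the median of their own chromosome, 32.4% departed, 15.7% above and 16.7% below. The share that departed was 30.9% on chromosome 15 and 36.6% on chromosome 1, both near that of all sites. Without DHT and bicalutamide at 6 h in both lines, 146 sites of chromosome 15 (39.0%) and 521 of chromosome 1 (39.9%) departed, where 37.2% of all sites did. A site that does not pass this test is not shown to carry exactly the chromosome's ratio, since the median SE of a site was 0.11 on chromosome 15 and 0.10 on chromosome 1.

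Large departures came at shares near those of all sites, except that those above the median of chromosome 1 had a larger share. On chromosome 15, 5 called sites (1.33%) stood more than 1 log2 unit above the chromosome's median and 12 (3.20%) more than 1 unit below it, where 1.68% and 3.13% of all tested sites did. On chromosome 1 the numbers were 33 (2.50%) and 43 (3.26%). Of the sites above the median, 18 of 55 on chromosome 15 and 153 of 228 on chromosome 1 were also higher in BicR than in LNCaP outright. The sites above the median of chromosome 15 were thus mostly less low than their chromosome, and not called higher than in LNCaP.

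**Figure D5:**
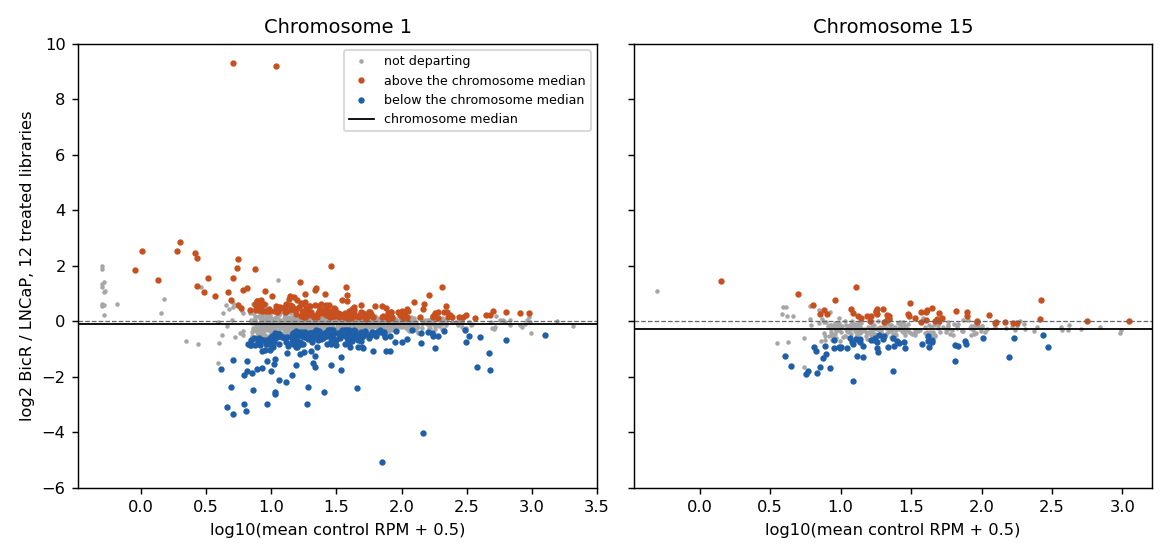
Log2 ratio of BicR to LNCaP in the 12 treated libraries (edgeR) for the tested sites of chromosomes 1 and 15 against log10 of the mean control RPM plus 0.5. Orange points lie above and blue points below the chromosome's median (black line) at an adjusted p under 0.05. Most points form a band around the line, and the lowest point of chromosome 1 stands at -5.08. Its 2 highest points belong to sites almost without tags in LNCaP, where the fitted value is no bound on the fold.

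Among sites of at least 10 RPM in the higher line without overlap in the control libraries, the lowest control ratio on chromosome 15 belonged to the first measured site, 21905831 on the minus strand. LNCaP had 88.7 RPM before treatment, 112 with ethanol at 6 h and 124 with ethanol at 24 h, and BicR had 17.3, 16.9 and 26.8. With treatment LNCaP lay between 99.6 and 137 RPM (median 117) and BicR between 35.9 and 53.2 (median 42.9). Every BicR library was below every LNCaP library, and the BicR level in the treated libraries was above that in its control libraries. The treated log2 difference was -1.42 (SE 0.084, edgeR adjusted p = 2.2e-05), which is 1.15 below the chromosome's own shift (edgeR adjusted p = 5.8e-05).

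The second lowest control ratio was that of 101420035 on the plus strand, near the other end of the measured stretch. LNCaP had 13.3, 12.8 and 12.8 RPM in the control libraries and BicR 2.84, 2.60 and 3.35. Under treatment LNCaP lay between 11.2 and 16.5 RPM (median 14.8) and BicR between 2.67 and 7.12 (median 4.17), again without overlap. The treated log2 difference was -1.69 (SE 0.16, edgeR adjusted p = 0.00014), and -1.77 without DHT and bicalutamide at 6 h. The next 3 by control ratio lay in the middle of the chromosome, and of these 2 were lower still in the treated libraries. At 69854033 on the plus strand the treated difference was -2.15 (SE 0.28, edgeR adjusted p = 0.00053), or -2.44 without that condition. At 63674044 on the minus strand it was -1.77 (SE 0.19, edgeR adjusted p = 0.00022), or -1.97 without it. At 63569806 on the plus strand it was -0.95 (SE 0.12, edgeR adjusted p = 0.0004). All 3 had no overlap between the lines in the treated libraries.

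Against the direction of chromosome 15, the site at 45803326 on the plus strand was higher in BicR. LNCaP had 5.05, 4.45 and 8.21 RPM in the control libraries and BicR 12.0, 9.75 and 11.9. With treatment LNCaP lay between 6.20 and 8.15 RPM (median 6.73) and BicR between 7.68 and 18.3 (median 10.9), so that the lines overlapped. The treated log2 difference was 0.76 (SE 0.17, edgeR adjusted p = 0.0076). It was one of 3 departing neighbours within 11.6 kb, up to 45814952, all above the chromosome's median and with treated log2 differences from -0.05 to 0.97. The site of highest control ratio, 40886446 on the plus strand (23.7, 23.9 and 22.4 RPM in BicR against 6.36, 12.9 and 13.9 in LNCaP), overlapped between the lines in the treated libraries and was not called higher than in LNCaP (log2 0.35, SE 0.17, edgeR adjusted p = 0.14). Set against the chromosome's own shift it did depart, by 0.62 (SE 0.17, edgeR adjusted p = 0.021). The others named by high control ratio, all on the plus strand, overlapped between the lines too. The site at 48624393 was called higher (log2 0.49, SE 0.16, edgeR adjusted p = 0.041). Those at 66797663 (log2 0.27, edgeR adjusted p = 0.16) and 32907726 (log2 0.11, edgeR adjusted p = 0.62) were not.

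The most abundant sites of chromosome 15 show how the shift looks where counting error is small. The site at 40331376 on the minus strand had 1136, 1143 and 1101 RPM in the LNCaP control libraries and 803, 784 and 852 in those of BicR. With treatment LNCaP lay between 955 and 1160.4 RPM (median 1087) and BicR between 772 and 962 (median 846), which overlap slightly. Its treated log2 difference of -0.30 (SE 0.078, edgeR adjusted p = 0.014) was close to the chromosome's median. The most abundant site, 64455217 on the minus strand, was lower in BicR in the control libraries (1048, 931 and 1056 RPM against 1270.4, 1215 and 1140.4) and stood at a log2 difference of 0.01 in the treated ones (SE 0.073, edgeR adjusted p = 0.93). There it departed from the chromosome's own shift by 0.28 (SE 0.074, edgeR adjusted p = 0.016). At 72523530 on the minus strand the treated log2 difference was -0.43 (SE 0.11, edgeR adjusted p = 0.014).

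By the same rule, the lowest control ratio on chromosome 1 was at 207119810 on the minus strand, on the long arm. LNCaP had 147 RPM before treatment, 130.5 with ethanol at 6 h and 135 with ethanol at 24 h, and BicR had 2.25, 2.21 and 1.74. Over the treated libraries LNCaP lay between 109 and 145 RPM (median 129) and BicR between 1.16 and 49.1 (median 1.59). The value of 49.1 RPM was that of DHT and bicalutamide at 6 h, and the other 5 treated BicR libraries reached at most 1.63. The treated log2 difference was -5.08 (SE 0.69, edgeR adjusted p = 0.0006) and -6.43 without that condition in both lines (SE 0.12, edgeR adjusted p = 3.0e-10).

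At 20306110 on the minus strand, on the short arm, LNCaP had 273, 253 and 299 RPM in the control libraries and BicR 15.6, 17.0 and 25.03. With treatment LNCaP lay between 190 and 335 RPM (median 216) and BicR between 3.61 and 98.2 (median 11.5). The highest BicR value again came from DHT and bicalutamide at 6 h, and the next was 18.4 RPM. The treated log2 difference was -4.01 (SE 0.59, edgeR adjusted p = 0.0009), and -4.62 without that condition in both lines (SE 0.32, edgeR adjusted p = 2.6e-06). Taking the 13 members of at least 10 RPM in the higher line that differed over 4-fold, without overlap, in the control libraries, this library lay between the LNCaP median and the median of the other 5 treated BicR libraries at 11. Among the 11 of them that were lower in BicR, it exceeded all 5 other treated BicR libraries at 10. Sites outside that interval were 156631231 on the minus strand and 207495022 on the plus strand. At the first this library had 27.7 RPM, where treated LNCaP reached 23.1. At the other it had 597 RPM, where treated LNCaP reached 70.4 and the other 5 treated BicR libraries 47.6. These counts were not made over all sites or for other libraries.

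The highest control ratio on chromosome 1, by the same rule, was at 223919302 on the plus strand, where LNCaP had 0 tags in each of its 3 control libraries and BicR had 22.996, 17.0 and 21.7 RPM. Taking 3 tags in each LNCaP library as the limit of detection, BicR was at least 44.5-fold higher. In the treated libraries LNCaP had 1 tag in all, and BicR lay between 9.42 and 29.2 RPM (median 22.1), without overlap (edgeR adjusted p = 1.9e-06). The lowest of these BicR values, 9.42 RPM, was that of DHT and bicalutamide at 6 h.

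Next by control ratio on chromosome 1 came 207495022 on the plus strand, which overlapped between the lines under treatment. It was not called (log2 1.49, SE 0.95, edgeR adjusted p = 0.25). Nor was 92470008 on the plus strand, named by the same rule (log2 0.07, SE 0.33, edgeR adjusted p = 0.89). The site at 2342274 on the minus strand was called higher (log2 1.90, SE 0.19, edgeR adjusted p = 0.00017). Also called higher was 205633975 on the minus strand. LNCaP had 15.9, 17.3 and 15.7 RPM in the control libraries and BicR 45.9, 34.8 and 40.2. Under treatment LNCaP lay between 12.8 and 72.7 RPM (median 44.2) and BicR between 101 and 190 (median 152), without overlap. The treated log2 difference was 1.999 (SE 0.32, edgeR adjusted p = 0.0013). It lay in the run of neighbouring departures with the most sites, 8 of the 10 sites from 205589801 to 205649750, all above the chromosome's median, with treated log2 differences from 0.78 to 2.54 and a median of 2.14. The control median was 0.42 over those 8 sites and 0.056 over all 10. In BicR, sites of this stretch were also called higher with DHT against ethanol. They include both end sites, 205589801 (log2 1.35) and 205649750 (log2 4.76). Bicalutamide alone did the same in BicR at 205627618 (log2 2.47) and 205649586 (log2 2.13). In LNCaP, 205633975 (log2 2.07) and 205649586 (log2 1.53) were called higher with DHT as well. The departure fit used only libraries with DHT or bicalutamide, so its differences in this stretch include these responses.

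Runs of sites below the chromosome's median were found too, with departing neighbours joined where they lay within 100 kb of each other. The run of 6 sites from 84615272 to 84638703 had treated log2 differences from -2.53 to -0.48 (median -0.88) and a control median of -0.39. Over all 8 sites of that stretch the control median was -0.24. The run of 4 sites from 78956671 to 78973084 lay between -3.09 and -1.72, with a control median of -2.17. The run of 4 from 169075560 to 169101287 lay between -2.36 and -1.65, with a control median of -1.63. In all, 30 runs of at least 3 merged units were listed, 3 of them on chromosome 15. Runs on other chromosomes were not counted.

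The abundant sites of chromosome 1 were mixed. At 45987555 on the minus strand LNCaP had 1697, 1589.7 and 1290.5 RPM in the control libraries and BicR 1154, 989.7 and 913, and the treated log2 difference was -0.48 (SE 0.093, edgeR adjusted p = 0.0036). At 93297596 on the plus strand LNCaP had 2068, 2229.8 and 2249 RPM and BicR 1978, 1883 and 2143, and the treated difference of -0.17 (SE 0.078) did not pass (edgeR adjusted p = 0.12). At 8938744 on the minus strand, where LNCaP had 2087, 1593 and 1310.3 RPM and BicR 1718.5, 1463 and 1285, it was 0.02 (SE 0.062, edgeR adjusted p = 0.81).

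The sites of both chromosomes were also compared between DHT and ethanol and between bicalutamide and ethanol within each line, over 6 h and 24 h. With DHT in BicR, 48 of 1681 tested members were higher and 17 lower (edgeR adjusted p under 0.05), where 1.93% and 1.02% of all tested sites were, 2.95% together. Of the 374 tested on chromosome 15, 11 were higher (2.94%) and 1 lower (0.267%). With DHT in LNCaP 3 members, all on chromosome 1, were higher, where 0.168% of all tested sites were called. The members called in BicR, 65 in all, fell to 28 without its DHT library of 24 h and to 33 without its ethanol library of 24 h, and those in LNCaP rose to 14 without either of its libraries of 6 h. With bicalutamide in BicR 21 of 1682 members were higher and 6 lower, where 0.704% and 0.413% of all tested sites were, 1.12% together. These 27 fell to 12 without BicR bicalutamide at 6 h and to 13 without BicR ethanol at 6 h. With bicalutamide in LNCaP edgeR called 0 members and 0 sites in all (25 members at an unadjusted p under 0.05), and DESeq2 called 0 members and 2 sites in all.

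The difference of the DHT response between the lines passed at 0 members by edgeR (104 at an unadjusted p under 0.05), where it passed at 0 sites of the whole table. It passed at 13 members without LNCaP ethanol at 6 h (56 sites in all) and at 15 without LNCaP DHT at 6 h (64 in all). That of the bicalutamide response also passed at 0 members by edgeR (89 at an unadjusted p under 0.05), where it passed at 9 sites of the whole table. Leaving out single libraries gave 1 to 12 members, with 12 without either BicR library of 24 h. The site at 205633975 rose with DHT in both lines. In BicR it went from 34.8 and 40.2 RPM with ethanol at 6 h and 24 h to 190 and 163 RPM with DHT (log2 2.20, SE 0.14, edgeR adjusted p = 0.00023). In LNCaP it went from 17.3 and 15.7 RPM to 72.7 and 61.6 RPM (log2 2.07, SE 0.15, edgeR adjusted p = 0.00088). Its response did not differ detectably between the lines (edgeR adjusted p = 0.97), and the level in BicR stayed above that in LNCaP in each matched condition of this comparison. With bicalutamide alone against ethanol, this site was also called higher in BicR (log2 1.73, SE 0.18, edgeR adjusted p = 0.0020) but not in LNCaP.

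At 84615272 on the minus strand, the first site of the run of 6 described above, BicR had 12.0 and 21.2 RPM with ethanol and 1.60 and 2.91 RPM with DHT (log2 -2.88, SE 0.34, edgeR adjusted p = 0.0035). LNCaP had 29.5 and 51.2 RPM with ethanol and 21.2 and 17.8 RPM with DHT (log2 -0.95, SE 0.24), which did not pass (edgeR adjusted p = 0.35). The difference between these responses did not pass either (edgeR adjusted p = 0.49). With bicalutamide alone BicR had 4.87 and 5.12 RPM (log2 -1.65, SE 0.23, edgeR adjusted p = 0.0073). LNCaP had 35.3 and 48.5 RPM with it (log2 0.13, SE 0.17), which did not pass. The difference between the bicalutamide responses did not pass (edgeR adjusted p = 0.061).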

How the data were processed

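CAGE tags were counted per start site by the authors, and both tag counts and RPM were deposited in 1 table, per the file headers. The deposited RPM equal the counts times 1 factor per library. The genome build was hg19, per the submitters' processing notes; aligner and site caller are not given in the sources used here. No batch is given in the labels.

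Control ratios were computed from mean RPM with a pseudocount of 0.5 RPM, and medians were taken per chromosome, arm and 10 Mb window with at least 10 sites. Breaks were sought with a piecewise-constant fit (penalty factor 3, at least 15 units per segment). It was tried on simulated steps larger than those at the best single splits given above. Steps as small as those splits were not simulated, so their absence from the calls says little. Sites were tested on counts with edgeR 4.0.16 (TMM, filter at 10 tags, condition as block) and windows with limma 3.58.1, in R 4.3.3, with Benjamini-Hochberg adjustment over the whole table. DESeq2 1.42.0 was an alternative. Labels do not say whether libraries came from separate cultures, so p-values measure only the spread between these libraries.

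Sites were named per chromosome by the 5 highest and 5 lowest control ratios (at least 10 RPM in the higher line, no overlap) and the 3 highest levels, and only part of these are printed because the table pairs no gene names. Exceptions are the sites and runs of the departure and response results, chosen after their values were seen. The chromosomes and lists were chosen with earlier results of these data known.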

Additional observations from a re-analysis of the deposited data

Results flagged for a closer look

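The level of chromosome 15 in the BicR library with DHT and bicalutamide at 6 h was -0.032, while the other 5 treated BicR libraries lay between -0.18 and -0.13. The gap to the nearest of them was 0.67 of the whole range, above Dixon's critical value of 0.625 for 6 libraries. The long arm of chromosome 1 in the same library stood at 0.0044, against -0.09 to -0.07 in the other 5, a gap of 0.77 of the range. A total of 9 groups of libraries were examined in this way and 2 exceeded the critical value, where chance gives about 1 in 20. Both cases are the same library.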

How the results depend on the processing

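The median control ratios of chromosomes 1 and 15 kept their sign under every alternative run (pseudocount, merged units, scaling, level filters, omission of a condition). Without each condition in turn, chromosome 15 ranged from -0.41 to -0.28 and chromosome 1 from -0.18 to -0.10. The long arm of chromosome 1 moved to -0.022 for sites under 10 RPM. Both chromosomes stayed 1 segment in every setting tried. With libraries or conditions left out, chromosome 15 sites lower in BicR numbered 133 to 190, and sites higher 10 to 23 (10 with no block). Members called with DHT ranged from 28 (without BicR DHT at 24 h) to 90 (without LNCaP DHT at 6 h) in BicR and from 2 to 14 in LNCaP (7 by DESeq2). Members called with bicalutamide ranged from 12 (without BicR bicalutamide at 6 h) to 32 in BicR, with 5 where no time term was used and 16 by DESeq2, and from 0 to 1 in LNCaP. The causes were not tested. Among named sites, 3 that did not pass changed sign when a library was left out: 64455217 of chromosome 15 (-0.040 to 0.066), and 92470008 (-0.25 to 0.27) and 8938744 (-0.021 to 0.055) of chromosome 1. Where 1 treated library of an arm remained, it was assumed to vary like the others. Depth limits statements on sites near 3 tags. No paired analysis was possible because the libraries compared carry no replicate numbers. The matched condition was the block in their place, and with no block 159 chromosome 15 sites and 326 chromosome 1 sites were lower (178 and 356 with it).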
